A study of Arabidopsis thaliana with 8 samples.

Results

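AT1G75945 is an uncharacterized Arabidopsis thaliana locus that lies among genes of the anther on chromosome 1. It was chosen by its counts in these 8 libraries, high in hta9 hta11 rosettes and almost undetected in the wild type, so its own values are given as a description with no test. Its neighbours were taken by locus number alone, from AT1G75910 to AT1G75950, to see whether the rise extended to them. Together these are 6 of the 36796 loci in the deposited count table. The data were poly(A) RNA-seq libraries of whole rosettes, 4 from plants of the genotype hta9 hta11 and 4 from wild-type plants, all of the accession Col-0. Every library came from the shoots of a pool of 5 plants that were 17 days old, had not bolted and had been grown on soil in long days, and was made with a directional kit. What lesion each mutation is, and where it lies in HTA9 or HTA11, is not stated in the labels, and the protocol mentions fewer biological replicates than the 4 libraries listed for a genotype. Library totals were 31611735 to 47467130 counts in hta9 hta11 and 32027511 to 40635454 counts in the wild type, and p-values measure the spread between these pools.

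HTA9 and HTA11 encode H2A.Z, a variant of histone H2A that sits in nucleosomes around transcription start sites and is found over the bodies of many silent, environmentally or developmentally controlled genes. Anther genes such as the EXL lipases and ATA27, to one side of AT1G75945, are known from the tapetum, the cell layer that feeds developing pollen and supplies the lipids and proteins of the pollen coat. The locus on the other side, SKP1, encodes the adaptor that links F-box proteins to the cullin of SCF ubiquitin ligases and is active throughout the plant.

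The loci lay in the following order on chromosome 1 (RefSeq annotation of TAIR10.1). EXL4 (AT1G75910, 28501434 to 28503283) and EXL6 (AT1G75930, 28508072 to 28509881) encode extracellular lipases of the GDSL type, a class of proteins known from the pollen coat. AT1G75920 (28504041 to 28507168), which stands between them, encodes a further GDSL-like lipase and overlaps the noncoding locus AT1G09603. ATA27 (AT1G75940, 28511142 to 28514284) encodes a glycosyl hydrolase of the beta-glucosidase family and is named as an anther gene. AT1G75945 (28515245 to 28515916) has 2 exons of 211 and 250 bases, with 186 coding bases, and runs on the minus strand. The other 5 loci run on the plus strand, SKP1 (AT1G75950, 28516519 to 28517896) among them, so AT1G75945 and SKP1 point away from each other, with 602 bases between their start sites. Between ATA27 and AT1G75945 there were 960 bases, and the gaps further left were 757, 903 and 1260 bases.

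The sequences before the 2 divergent start sites are shown because SKP1 and AT1G75945 share this interval and yet had unlike values. They are the 250 bases upstream of each annotated start, read 5′ to 3′ on the strand of its gene from the RefSeq genome TAIR10.1, chr1:28515917-28516166 on the minus strand for AT1G75945 and chr1:28516269-28516518 on the plus strand for SKP1. Capitals mark bases that at least 10 other alignments elsewhere in the genome also covered.
AT1G75945: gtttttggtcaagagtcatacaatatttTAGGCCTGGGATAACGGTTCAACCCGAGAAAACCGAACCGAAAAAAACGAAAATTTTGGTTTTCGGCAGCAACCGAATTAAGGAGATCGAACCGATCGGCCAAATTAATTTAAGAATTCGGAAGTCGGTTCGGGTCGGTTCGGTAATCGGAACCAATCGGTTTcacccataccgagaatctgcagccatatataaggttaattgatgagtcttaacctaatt
SKP1: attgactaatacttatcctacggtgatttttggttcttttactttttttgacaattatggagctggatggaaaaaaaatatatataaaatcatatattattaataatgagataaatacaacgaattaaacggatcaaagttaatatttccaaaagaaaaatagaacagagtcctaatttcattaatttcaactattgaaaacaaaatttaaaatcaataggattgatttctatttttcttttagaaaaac
The AT1G75945 window had 41.6% GC and matched 26 other places in the genome, and 163 of its 250 bases are in capitals. The SKP1 window had 22.4% GC and matched 0 other places. Of 27443 upstream windows of protein-coding genes, 70% matched no other place and 3.47% matched at least 26. EXL4 and EXL6 had 3 such places each, AT1G75920 had 6 and ATA27 had 0.

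AT1G75945 stood between 2 blocks of repeated sequence. The upstream block ran from 60 to 222 bases before its start site (chr1:28515976-28516138, 163 bases), with up to 22 other alignments at a base. The downstream block ran from 671 to 882 bases after the start site (chr1:28515034-28515245, 212 bases), with up to 26, and touched the gene only at its last base. Elsewhere, 26 places matched the downstream flank and 23 the upstream flank, and 0 places matched both. Counted as single alignments, which can share a place, 13 of the downstream flank lay within 2 kb of one of the upstream flank. In a search that kept inverted matches only, the blocks also resembled each other over 29 bases, with 3 mismatches and no gap. This stretch is shown because it recurs on both sides of the gene, at chr1:28515135-28515163 read on the plus strand and at chr1:28515989-28516017 read on the minus strand. Here capitals mark the bases that both copies share.
Downstream flank: AAtTCGGTTCGGGTCGGTTCGGacATCGG
Upstream flank: AAgTCGGTTCGGGTCGGTTCGGtaATCGG

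**Figure D1:**
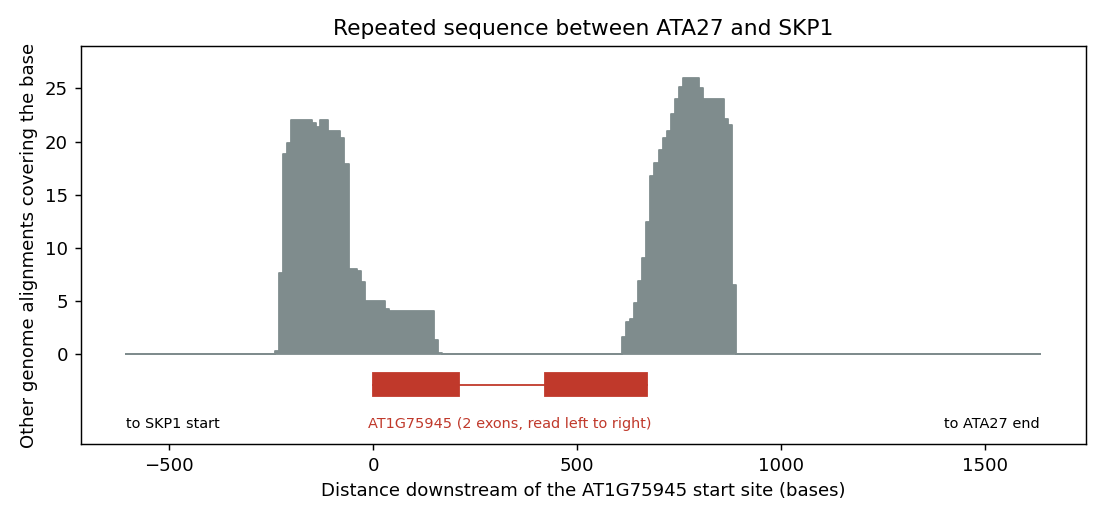
Number of other genome alignments (blastn) covering each base between ATA27 and SKP1, averaged in bins of 10 bases, against the distance downstream of the AT1G75945 start site. Boxes are the 2 exons of AT1G75945. The repeated sequence forms a block on each side of the gene, with up to 22 alignments upstream and up to 26 downstream.

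In hta9 hta11 rosettes AT1G75945 was expressed in every library, while the 4 genes to its left had 0 to 7 counts a library in either genotype and SKP1 to its right, an abundant transcript in both, was not called changed. AT1G75945 had 196, 283, 184 and 311 counts in hta9 hta11 libraries 1 to 4, against 1, 1, 3 and 1 counts in wild-type libraries 1 to 4. As levels in CPM, counts scaled by TMM to a common library size, these were 4.14, 7.03, 5.70 and 8.37 CPM in hta9 hta11, against 0.0284, 0.0242, 0.0808 and 0.0320 CPM in the wild type. The groups were far apart, and in the wild type no library rose above 3 counts, which is the level taken here as the limit of detection. The means were 6.31 ± 1.81 CPM in hta9 hta11 and 0.0414 ± 0.0265 CPM in the wild type (SD, n = 4 each). The fitted log2 fold change was 7.14 (SE 0.38), which ranked 2 by size of rise among the 20214 genes tested, where the median over all genes was -0.00137. The totals of 974 counts in hta9 hta11 and 6 counts in the wild type give a depth-adjusted ratio of 149.8, with an exact 95% interval of 68.6 to 409 that covers counting error only. Of the 6 wild-type counts 3 lay in library 3, and without that library the log2 fold change was 7.66. In bulk tissue, fewer cells of a type and less RNA per cell cannot be told apart.

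The GDSL lipase genes did not share the rise. EXL4 had 0, 1, 1 and 2 counts in hta9 hta11 and 0, 1, 0 and 1 in the wild type. AT1G75920 had 3, 5, 6 and 5 counts in hta9 hta11 and 5, 7, 5 and 5 in the wild type. EXL6 had no count in the 4 hta9 hta11 libraries and 0, 0, 1 and 0 in the wild type. In all 3 genes the groups overlapped, and only AT1G75920 passed the limit of 3 counts in any library. A limit of 3 counts corresponds to 0.0633 to 0.0961 CPM, depending on the library, so lower levels were not detectable at this depth.

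ATA27, the nearest gene to the left, had 0, 1, 0 and 0 counts in hta9 hta11 and 1, 0, 0 and 0 in the wild type. The 4 genes from EXL4 to ATA27 together had 3, 7, 7 and 7 counts in hta9 hta11, against 6, 8, 6 and 6 in the wild type. These 24 counts in hta9 hta11 and 26 counts in the wild type give a depth-adjusted ratio of 0.852 (exact 95% interval 0.468 to 1.54, counting error only). Of these counts, AT1G75920 gave 19 in hta9 hta11 and 22 in the wild type, so the pooled interval is mostly its own. The intervals of the others reached up to 20.4 for EXL4, 36.0 for EXL6 and 72.4 for ATA27, beside 68.6 to 409 for AT1G75945, and cover counting error only. None of these 4 genes passed the filter on low counts, so edgeR tested only 2 of the 6 loci, AT1G75945 and SKP1. With no filter all were fitted, and their adjusted p ran from 0.631 for EXL6 to 0.984 for ATA27 in edgeR's quasi-likelihood test.

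SKP1 had 8411, 5813, 4753 and 6020 counts in hta9 hta11, against 6539, 6113, 6627 and 4703 in the wild type. As levels these were 177.5, 144.5, 147.3 and 161.9 CPM in hta9 hta11, against 185.6, 147.9, 178.6 and 150.6 CPM in the wild type. The groups overlapped, with means of 157.8 ± 15.2 CPM in hta9 hta11 and 165.7 ± 19.2 CPM in the wild type (SD, n = 4 each). The log2 fold change of -0.07 (SE 0.10, 95% interval -0.29 to 0.15) did not pass (edgeR adjusted p = 0.777), against a background of 3.74% of genes called in either direction. The groups did not overlap in 1 of the 6 loci, AT1G75945, which was chosen for that contrast, and in 11.3% of all genes tested, 6.23% with hta9 hta11 higher. Of the 5 neighbours, 1 was tested and 0 were called, and this count was 0 in all 16 alternatives as well. Per kilobase of exon, AT1G75945 reached 13.7 CPM per kb in hta9 hta11, against 0.0897 CPM per kb in the wild type. SKP1 stood at 140.8 CPM per kb in hta9 hta11 and 147.8 CPM per kb in the wild type, so on this scale AT1G75945 stayed well below its neighbour in both genotypes.

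**Figure D2:**
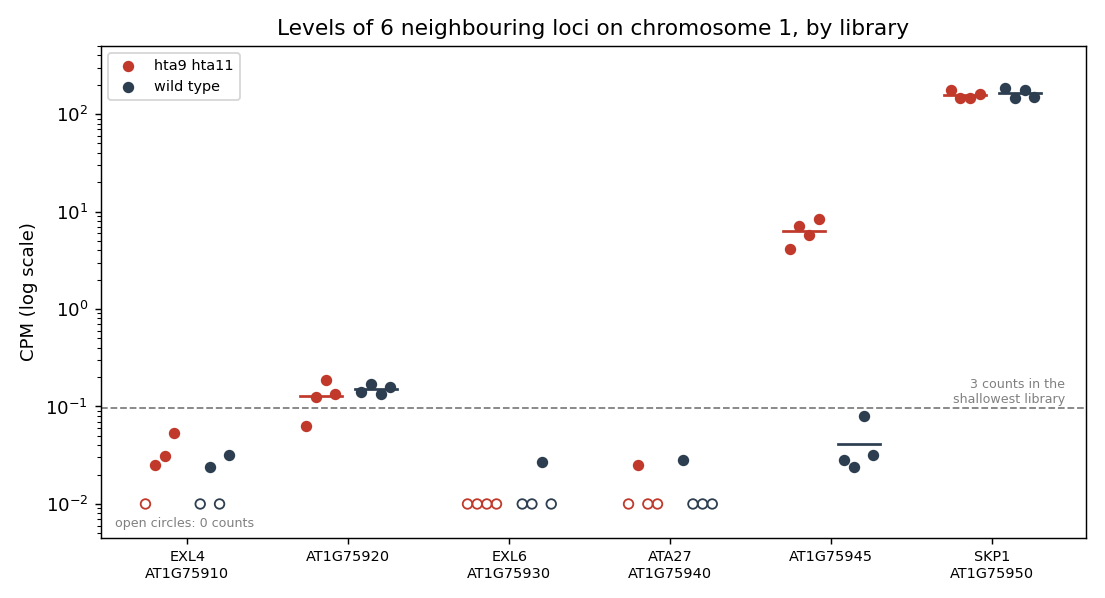
CPM of the 6 loci in each library on a log axis, ordered along the chromosome, with hta9 hta11 left of wild type at each locus. Each filled point is a library, open circles at the bottom are libraries with 0 counts, bars are means (drawn where no library is at 0) and the dashed line is 3 counts in the library of lowest depth. Only at AT1G75945 do the groups separate, at 4.14 to 8.37 CPM in hta9 hta11 and 0.0242 to 0.0808 CPM in wild type.

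No near-identical copy of AT1G75945 was found elsewhere. Its spliced transcript, searched alone, had 3 other alignments in the genome, the longest of 72 bases at 77.8% identity in AT1G27565. When the whole interval between ATA27 and SKP1 was searched, 17 alignments that began in a flanking block reached into the gene, 5 from upstream and 12 from downstream, over 1 to 162 of its bases. Their identity was 68.1% to 80.7%, and neither search gave an alignment of at least 95%. Its model overlaps no other annotated locus. AT1G27565, an uncharacterized locus, had 1, 0, 0 and 5 counts in hta9 hta11 and no count in the wild type. For AT1G75920 the longest alignment was 659 bases at 93.9% identity in AT1G76780, and EXL4 and EXL6 aligned with each other over 355 bases at 70.1%.

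None of the other loci around AT1G75945 was called changed in edgeR. Within 50 kb on either side, 25 of 39 other loci were tested, and 0 were called higher and 0 lower in edgeR, with 2 at an unadjusted p under 0.05; limma-voom called 0 and DESeq2 called 1. Over all genes 2.49% were called higher and 1.25% lower. The log2 fold changes ran from -0.41 to 0.53 with a median of 0.02. Of the 14 loci left, 6 had no count and 8 were below the filter. In 4 of the 25 tested loci the groups did not overlap, where 11.3% of all genes tested did not. Of these 4, AT1G75980, PETE1 and AT1G76110 were lower in hta9 hta11 and AT1G75891 was higher.

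The 3 lipase genes next in the row, further left, had counts in every library of both genotypes. AT1G75900, a GDSL-like lipase gene, averaged 13.4 ± 1.19 CPM in hta9 hta11 and 14.5 ± 2.61 CPM in the wild type. Its log2 fold change was -0.12 (SE 0.12, edgeR adjusted p = 0.692). AT1G75880, of the SGNH hydrolase type, averaged 2.58 ± 0.530 CPM in hta9 hta11 and 2.47 ± 0.424 CPM in the wild type, a log2 fold change of 0.06 (adjusted p = 0.904). AT1G75890, another GDSL-like lipase gene, averaged 0.454 ± 0.0446 CPM in hta9 hta11 and 0.321 ± 0.100 CPM in the wild type (SD, n = 4 each), a log2 fold change of 0.50 (SE 0.29), which did not pass (adjusted p = 0.399). Its antisense partner AT1G75891 had a log2 fold change of 0.53 (adjusted p = 0.312), and since the strand setting of the counting is not given in the sources used here, reads of this pair cannot be told apart. The sign turned for AT1G75880 without hta9 hta11 library 3 (-0.10) or wild-type library 3 (-0.023) and for AT1G75900 without wild-type library 4 (0.016). In the row of 6 lipase genes from AT1G75880 to EXL6, 3 were thus tested and 0 called.

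On the right, AT1G75960, an AMP-dependent synthetase gene whose start lies 2.02 kb away, had a log2 fold change of 0.11 (edgeR adjusted p = 0.762). PETE1 (AT1G76100), one of the plastocyanins that carry electrons to photosystem I, came nearest to the threshold, 39.0 kb away. It averaged lower in hta9 hta11, with a log2 fold change of -0.41 (SE 0.10) that missed the threshold in edgeR (adjusted p = 0.0601). DESeq2 called it, as did edgeR without hta9 hta11 library 1 (adjusted p = 0.0202), and the adjusted p of the alternatives ran between 0.00682 in DESeq2 and 0.192.

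**Figure D3:**
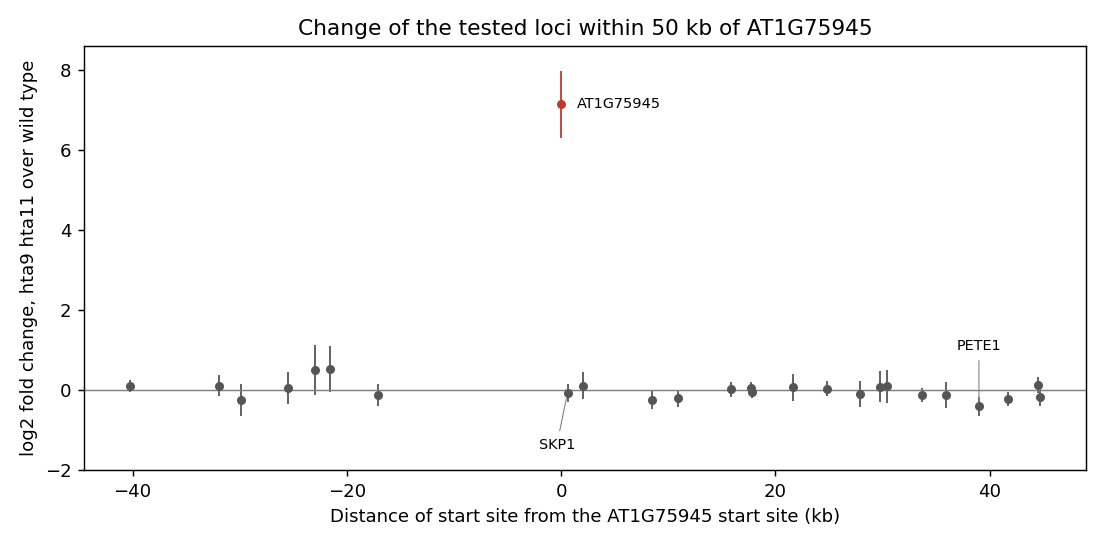
Log2 fold change of hta9 hta11 over wild type for AT1G75945 and the 25 other tested loci within 50 kb, against the distance of each start site from that of AT1G75945. Bars are 95% intervals of the fit. The 25 others lie between -0.41 and 0.53, and AT1G75945 lies at 7.14. EXL4, AT1G75920, EXL6 and ATA27 were below the count filter and are not drawn.

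Among genes elsewhere with a match of the AT1G75945 window upstream, those tested were not called. The matches of the AT1G75945 window covered 67 to 225 bases at 67.0% to 81.1% identity, and in 5 genes a match overlapped the 250-base upstream window. In AT2G14460 the match (6155091 to 6155232 on chromosome 2) ran across the start site at 6155166. In TED7 the match (19834982 to 19835116 on chromosome 5) reached only the far end of the window. The windows of AT2G14460 and TED7 matched 3 and 1 other places, against 25 for AT1G52905 and 10 for AT2G05220. Of these 5 genes, 4 were tested and 0 called in edgeR, with 0 at an unadjusted p under 0.05, and DESeq2 and limma-voom also called 0. The gene not tested was AT1G27565, whose match had 163 aligned bases at 76.1% identity and whose window matched 25 other places. It had 1, 0, 0 and 5 counts in hta9 hta11 and no count in the wild type (edgeR adjusted p = 0.389 with no filter). AT1G52905 averaged 7.98 ± 1.001 CPM in hta9 hta11 and 7.18 ± 1.28 CPM in the wild type, a log2 fold change of 0.15 (edgeR adjusted p = 0.644). AT2G05220, of the ribosomal S17 family, had 0.08 (adjusted p = 0.646), AT2G14460 had -0.03 (adjusted p = 0.921) and TED7, a gene of tracheary element differentiation, had -0.80 (adjusted p = 0.281). More widely, 16 of 757 tested genes whose upstream window recurred in at least 20 places were called higher, which is 2.11%, beside 487 of 19438 genes with an upstream window, which is 2.51%.

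Short promoter motifs were searched on both strands of the 6 windows as a description. GAGAGA, a repeat bound by BASIC PENTACYSTEINE factors, occurred in none of the 6 windows and in 20.6% of all 27443. The CArG box of MADS-domain proteins, searched only as CC, 6 bases of A or T, and GG, occurred in none of the 6 and in 2.52% of all. AAACCCTA, the telo-box, occurred only before AT1G75920, 45 to 38 bases upstream, and in 4.49% of all windows. CACGTG, the G-box, occurred only before ATA27, 98 to 93 bases upstream, and in 6.49% of all. TATAAA occurred before EXL6 and SKP1 and in 47.3% of all windows. Only exact patterns were searched, so related forms, such as any in the stretch ccatatataagg of the AT1G75945 window, were not counted. The motifs do not overlap one another in these windows, save for a pair of TATAAA matches before EXL6.

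Across the genome, the genes of the tapetum and pollen coat that passed the count filter were not called changed. Some of the others had counts only or mainly in hta9 hta11. This list of 25 genes had 5 members past the count filter, and 0 were called. That test gives no result for the rest of the list. TPD1, a secreted ligand that specifies the tapetum, had the highest mean CPM of the list, with 12.4 CPM in hta9 hta11 and 12.5 CPM in the wild type (log2 fold change -0.02, edgeR adjusted p = 0.936). DRL1, a reductase in the synthesis of sporopollenin, the polymer of the pollen wall, had 7.32 CPM in hta9 hta11 and 6.74 CPM in the wild type (log2 fold change 0.12, adjusted p = 0.613). With no count filter 22 were fitted and 2 rose, beside 2.02% of all genes called higher in that fit. Without hta9 hta11 library 3, with the filter, the list likewise had 2 calls. The 2 genes in the fit with no filter were MEE48, an anther glucanase gene known as A6 (adjusted p = 0.0166), and ACOS5, an acyl-CoA synthetase of sporopollenin synthesis (adjusted p = 0.0368).

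MEE48 had 23, 19, 2 and 18 counts in hta9 hta11 and no count in the wild type. ACOS5 had 27, 15, 0 and 11 counts in hta9 hta11, against 0, 0, 0 and 1 in the wild type. AMS, a bHLH factor that directs tapetum genes, had 12, 10, 0 and 12 counts in hta9 hta11, against 1, 0, 0 and 0 in the wild type (adjusted p = 0.0522 with no filter). In these 3 genes hta9 hta11 library 3 was the low one, at 0 to 2 counts. AT1G75945 had 184 counts in that same library. Library 3 was also lowest in hta9 hta11 for A9 (20, 4, 0 and 5 counts), ATA1 (1, 3, 0 and 6) and CYP704B1 (7, 4, 1 and 3). These had no count in the wild type. It was lowest too for LAP5, with 10, 14, 2 and 10 counts in hta9 hta11 and 0, 2, 2 and 1 in the wild type. Some genes of the list with few counts were not lowest there, such as MS2, a gene of pollen wall lipids, with 0, 2, 3 and 4 counts in hta9 hta11. Another was SPL, a regulator of early anther development, with 1, 4, 2 and 2. The groups did not overlap in MEE48, CYP704B1, LAP5, SPL and the glycine-rich protein gene GRP17, each higher in hta9 hta11. None of these passed the filter. Over all genes that did pass it, 6.23% separated with hta9 hta11 higher. Libraries of hta9 hta11 had counts for 14 to 19 of the 25 genes, against 9 or 10 in the wild type, and the summed level of the list was 31.8 to 35.0 CPM in hta9 hta11 and 28.5 to 32.5 CPM in the wild type. That sum was mostly TPD1, DRL1, LAP6 (6.81 CPM in hta9 hta11, 6.59 CPM in the wild type) and EMS1 (4.87 and 4.13 CPM). It therefore says little about the members with few counts. MS1 and CYP703A2, tapetum genes of pollen wall formation, and A7 had no count in any library. Of 10 of the list's genes with no wild-type count, 4 reached at least 10 counts over the hta9 hta11 libraries, where 0.354% of all 11291 genes with no wild-type count did. Most of those 11291, 9986 genes, had no count in any library, as had 3 of the list's 10. Genes taken for having no wild-type count can only be higher in hta9 hta11, so this is a description. The glycine-rich pollen coat proteins, which share the pollen coat with the EXL lipases, had 78 counts in hta9 hta11 and 60 counts in the wild type over 5 genes. Of these counts, GRP18 gave 59 in hta9 hta11 and 46 in the wild type.

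Of 10 pollen genes, 1 was tested and 0 were called. The list had 247 counts in hta9 hta11 and 173 counts in the wild type, a depth-adjusted ratio of 1.32 (exact 95% interval 1.08 to 1.61, counting error only). The groups did not overlap in ACT4, a reproductive actin gene, with 13, 16, 6 and 17 counts in hta9 hta11 and 6, 4, 5 and 5 in the wild type. Nor did they in AGP11, an arabinogalactan protein gene, with 6, 4, 4 and 5 counts in hta9 hta11 and 1, 4, 1 and 1 in the wild type. AGP11 separated only after scaling, at 0.0994 CPM in hta9 hta11 library 2 and 0.0968 CPM in wild-type library 2. Over all genes tested, the groups did not overlap in 11.3%, 6.23% with hta9 hta11 higher. ACT4 and AGP11 did not pass the filter, so these shares do not cover genes of such low counts. With no filter neither was called (edgeR adjusted p = 0.149 for ACT4 and 0.310 for AGP11). The gene tested was AGP6, an arabinogalactan protein gene of pollen, with 0.755 CPM in hta9 hta11 and 0.747 CPM in the wild type (log2 fold change 0.02, edgeR adjusted p = 0.970). Of 8 floral organ identity genes, all were tested and 6 rose, where 2.49% of all genes tested were called higher. SEP2 (log2 fold change 3.53), SEP3 (2.92) and AP3 (2.64), which are MADS-domain factors of the flower, and PI (2.18), the partner of AP3, had the largest changes, with adjusted p of 0.00318, 0.000846, 0.00583 and 0.0348 in edgeR. AG, which specifies stamens and carpels, was not called, with 111 counts in hta9 hta11 and 145 counts in the wild type (log2 fold change -0.49, adjusted p = 0.301). LFY, a factor that sets floral meristem identity, was not called either (log2 fold change 1.22, adjusted p = 0.143). The PI call ended without hta9 hta11 library 2 or 4 or wild-type library 2, 3 or 4 (adjusted p up to 0.103), and the count of 6 was 4 to 6 with a library left out and 3 with the stricter filter of 1 CPM in 4 libraries. The labelled tissue was checked with 5 photosynthesis genes of the leaf. RBCS1A, CAB1, RCA, GAPA and CA1 summed to 41795 to 47876 CPM in hta9 hta11 and 45687 to 53802 CPM in the wild type, and 0 of 5 were called. The part of cells of floral or anther type in the level of AT1G75945 was not tested.

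Genes of the families of SKP1 and ATA27 gave 0 calls with the count filter. Of 21 SKP1-like genes 6 were tested and 0 called, with a median log2 fold change of -0.03. AT5G42190, known as ASK2, had 79.97 CPM in hta9 hta11 and 79.6 CPM in the wild type (log2 fold change 0.01, edgeR adjusted p = 0.976). SK13 (AT3G60010) was the exception with no count filter (adjusted p = 0.0322), at 10, 10, 8 and 22 counts in hta9 hta11, against 1, 0, 0 and 3 in the wild type. Of 13 genes for other parts and F-box partners of SCF ligases, 12 were tested and 0 called. CUL1, the cullin scaffold, had a log2 fold change of 0.06 (adjusted p = 0.756) and TIR1, the auxin receptor, 0.30 (adjusted p = 0.232). Of 6 beta-glucosidases related to ATA27, 2 were tested and 0 called. BGLU18 had 590.3 CPM in hta9 hta11 and 562.5 CPM in the wild type (log2 fold change 0.07, adjusted p = 0.895), and PYK10, the enzyme of root endoplasmic reticulum bodies, 76.0 CPM in hta9 hta11 and 84.9 CPM in the wild type (-0.16, adjusted p = 0.702). In the lists with 0 calls in edgeR, DESeq2 and limma-voom also called 0, and the members at an unadjusted p under 0.05 were 3 among the SCF genes, 1 among the leaf genes and 0 in the others.

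The genes whose pattern was most like that of AT1G75945 were ranked by Pearson's r of log2 CPM over the 8 libraries, a measure that takes in the difference between genotypes. They were AT4G18900, a WD40 repeat gene (r = 0.990), SEP3 (0.988), AT2G17280, of the phosphoglycerate mutase family (0.987), AT3G53310, an AP2/B3-like factor gene (0.986), and AT5G37940, a zinc-binding dehydrogenase gene (0.985). AT4G18900 had 26, 34, 43 and 48 counts in hta9 hta11 and no count in the wild type. AT2G17280 averaged 19.8 ± 4.16 CPM in hta9 hta11 and 5.93 ± 0.376 CPM in the wild type, and AT3G53310 averaged 11.7 ± 2.24 CPM in hta9 hta11 and 3.66 ± 0.409 CPM in the wild type. AT5G37940 averaged 1.81 ± 0.173 CPM in hta9 hta11 and 0.267 ± 0.0298 CPM in the wild type (SD, n = 4 each). Since the ranking used the 8 libraries, the difference between genotypes in these 5 genes follows from their choice and supports nothing.

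The 4 hta9 hta11 libraries did not hold equal amounts of the mutated genes. HTA9 stood at 60.6, 14.8, 33.4 and 16.5 CPM in hta9 hta11 libraries 1 to 4 and at 86.0 to 103.9 CPM in the wild type (log2 fold change -1.60, edgeR adjusted p = 0.0457). HTA11 stood at 26.03, 2.98, 14.1 and 3.60 CPM in hta9 hta11 and at 38.5 to 54.1 CPM in the wild type (log2 fold change -1.93, adjusted p = 0.0924). The HTA9 call ended without hta9 hta11 library 2, 3 or 4 or any 1 of the wild-type libraries (adjusted p up to 0.123), with upper-quartile scaling (0.0504) and with the stricter filter (0.0540). Leaving out hta9 hta11 library 1 moved HTA11 to -2.73 on the log2 scale and past the threshold (adjusted p = 0.0103), and limma-voom also called it (adjusted p = 0.0378). Libraries 1 and 3, with more of both transcripts, had the lower AT1G75945 levels of 4.14 and 5.70 CPM, and libraries 2 and 4, with less, had 7.03 and 8.37 CPM. SEP3 was also higher in libraries 2 and 4, at 4.33, 7.08, 4.06 and 7.18 CPM in hta9 hta11, against 0.640 to 0.851 CPM in the wild type. The r of the likeness ranking also takes in differences among the hta9 hta11 libraries. For genes of that ranking, SEP3 among them, a shared order can thus follow from their choice. In the likeness ranking, AT2G17280 (17.2, 21.5, 15.6 and 24.7 CPM) and AT3G53310 (9.33, 13.3, 10.4 and 14.0 CPM) were higher there too. The floral organ identity genes other than AG were as well, such as AP1 at 1.79, 3.31, 1.05 and 3.09 CPM. Not every gene of the likeness ranking did so. AT4G18900 had 0.549, 0.845, 1.33 and 1.29 CPM and AT5G37940 had 1.88, 1.69, 2.01 and 1.64 CPM in hta9 hta11 libraries 1 to 4. With 4 libraries no correlation is given, and the part of the HTA9 and HTA11 levels in that of AT1G75945 was not tested. Even the library with the lowest level, at 4.14 CPM, lay far above the wild-type range.

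**Figure D4:**
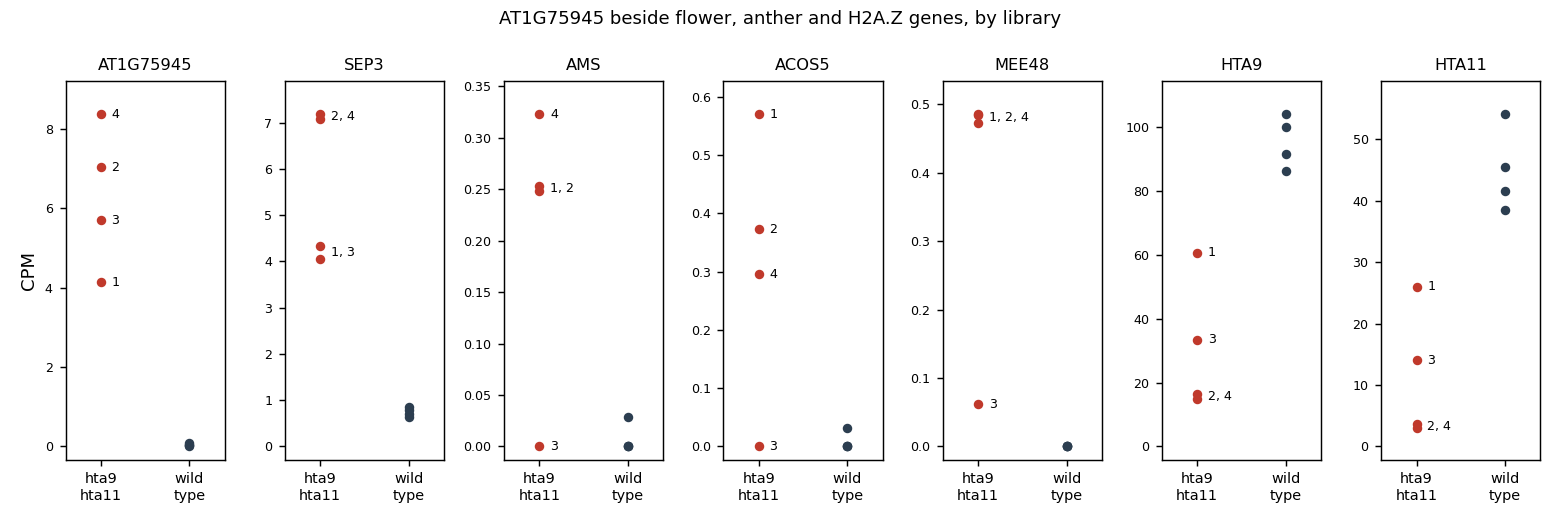
CPM in each library (linear axes, a scale of its own in every panel) of AT1G75945, the floral gene SEP3, the anther genes AMS, ACOS5 and MEE48, and HTA9 and HTA11, with hta9 hta11 left of wild type. Numbers give the hta9 hta11 library. Library 3 is lowest in AMS, ACOS5 and MEE48 and stands at 5.70 CPM in AT1G75945, and libraries 2 and 4 are highest in AT1G75945 and lowest in HTA9 and HTA11.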

How the data were processed

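The authors deposited a table of whole-number counts per gene, used here as counts with a column per library and 0 columns of values left unused. The submitters' processing notes name HISAT2 2.2.1, fastp 0.23.2 and SAMtools 1.17 as tools, along with limma and DESeq2, and TAIR10 as the genome build. How reads were assigned to genes, with which strand setting and with what treatment of multi-mapping reads, is not given in the sources used here. From the counts, edgeR 4.0.16 (R 4.3.3; filterByExpr, TMM, quasi-likelihood F test, 2-sided) compared hta9 hta11 with wild type, with Benjamini-Hochberg adjustment over all 20214 genes tested and a threshold of 0.05. CPM used TMM-scaled library sizes. Intervals of count ratios are exact (Clopper-Pearson, 95%) and, like the limit of 3 counts, cover counting error only. Names, positions and sequences came from RefSeq TAIR10.1, in which 36632 of 36796 loci were found. Repeats were searched in the genome with blastn 2.17.0 (e-value limit 1e-05). The 2 flanks of AT1G75945 were compared with each other at a looser e-value limit, with the low-complexity filter off. Only inverted matches were kept there. The test was run on simulated data first. No libraries of a genotype were repeats of each other (chi-square over degrees of freedom 12.5 to 45.3). Members, lists and named genes were chosen with earlier results of these data known. Named were the members, the adjoining lipase genes, HTA9 and HTA11, up to 4 called genes a list (or the 2 of highest level) and the 5 genes of highest r. MEE48, ACOS5, AMS, MS2, SPL, ACT4, AGP11, AG, LFY, SK13 and the remaining loci were named after their values were seen. Alternatives were upper-quartile or RLE scaling, no filter, at least 1 CPM in 4 libraries, the replicate number as a block, DESeq2 1.42.0, limma-voom 3.58.1, each library left out, and, added after seeing the data, hta9 hta11 libraries 1 and 3 left out together.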

Additional observations from a re-analysis of the deposited data

Results flagged for a closer look

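A library stood apart from the other 3 of its genotype, by the gap to its nearest neighbour relative to the group's range, in 8 cases, and chance flags about 1 in 20 groups. How many groups were examined is not given, so the 8 cases cannot be set against that rate. The wild-type library 3 was the high one for AT1G75945, at 0.0808 CPM, which is 3 counts. For EXL6 it was also wild-type library 3, at 0.0269 CPM, and for ATA27 hta9 hta11 library 2, at 0.0249 CPM, and wild-type library 1, at 0.0284 CPM, each of which is 1 count. A single count beside libraries with 0 counts is always flagged by this measure. AT1G75880 was high in hta9 hta11 library 3, at 3.38 CPM. AGP6 was low in hta9 hta11 library 1, at 0.697 CPM. In wild-type library 1, PI was high at 0.482 CPM and AT5G42190 at 88.1 CPM.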

How the results depend on the processing

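Members other than AT1G75945 had 0 calls under all 16 alternatives, the log2 fold change of SKP1 stayed between -0.13 and -0.01, and that of AT1G75945 stayed between 6.88 and 7.66 (6.93 to 7.66 with a library left out, the highest without wild-type replicate 3). The 757 changed genes became 1504 in DESeq2 and 208 to 1246 with a library left out. Same-numbered libraries did not pair (correlations of their deviations -0.28 to 0.40, with 2 of 4 matching best with their own number), and with the replicate number as a block 847 genes changed. In the wider neighbourhood 1 locus, PETE1, was called with the replicate block, in DESeq2, without hta9 hta11 libraries 1 and 3 together and, with a library left out, in 0 to 1 loci, the 1 being without hta9 hta11 replicate 1. The tapetum list had 2 calls with no filter, 3 without libraries 1 and 3 and 0 to 2 with a library left out. The floral list had 3 calls with the stricter filter, the SKP1-like list 1 with no filter and the SCF list 1 (TIR1) with the replicate block. HTA9 lost its call in 7 leave-outs (adjusted p up to 0.123), with upper-quartile scaling (0.0504) and with the stricter filter (0.0540), and PI in 5 leave-outs (up to 0.103). HTA11 gained one with the replicate block (0.0329), in limma-voom (0.0378) and without hta9 hta11 replicate 1 (log2 fold change -2.73), and, by construction, without libraries 1 and 3 (-3.77). Uncalled genes near 0 changed sign. AT1G75880 was at -0.11 and AT5G42190 at -0.013 without libraries 1 and 3, and TPD1 at 0.0047 with upper-quartile scaling. With a library left out, the ranges were -0.10 to 0.18 for AT1G75880, -0.18 to 0.016 for AT1G75900, -0.054 to 0.014 for TPD1, -0.061 to 0.11 for AGP6, -0.022 to 0.058 for AT5G42190, -0.058 to 0.24 for BGLU18 and -0.29 to 0.025 for PYK10. The causes were not tested. Depth limits the silent genes: levels under 3 counts in a library could not be told from 0.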
